A study of Homo sapiens with 5 samples.

Results

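PRKDC, ATM, ATR, MTOR, SMG1 and TRRAP encode the PI3K-like giant kinases, and their introns were followed one by one through 5 RNA sequencing libraries of a splicing study. The introns were taken by gene symbol from 3 deposited tables, each of which sets 1 depleted library beside 1 control. The 6 genes held 62 of the 34560 introns listed in any table and were 6 of 8409 listed genes. They had 31 of 16629 introns in the WBP11 RNAi table, 37 of 24077 in the SNW1 RNAi table and 39 of 22471 in the WBP11 auxin table. The genes were chosen as a family with retention results of these data known, so their retention values are given as descriptions.

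All libraries came from DLD-1, a human colorectal adenocarcinoma cell line, and 3 of them are labelled DLD-1 LacZeo: a control with no treatment named in its label (the file header calls it control RNAi), cells given 100 nM WBP11 siRNA for 72 h, and cells given 100 nM SNW1 siRNA for 72 h. The remaining pair is labelled DLD-1 LacZeo osTIR1, and both of these libraries, the control and the WBP11-depleted one, were exposed to 500 µM auxin for 48 h. Per the series design, the auxin depletion acts on an AID-tagged WBP11 transgene in cells whose endogenous WBP11 gene is knocked out, but the labels name the same line for both auxin libraries, and whether they differ in genotype is not stated in them. A library of the degron line without auxin was not analysed here. WBP11 is a splicing factor that binds protein phosphatase 1, and SNW1, also called SKIP, is a component of the activated spliceosome. Each group had 1 library, so no difference below has a replicate check, no p-value was computed, and the intervals cover counting error only. The comparisons with WBP11 RNAi and SNW1 RNAi share their control library.

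The PI3K-like kinases resemble the PI3 lipid kinases in their catalytic domain but act on proteins, and they are among the longest polypeptides that human cells make. PRKDC is the catalytic subunit of DNA-PK and joins broken DNA ends, ATM answers DNA breaks, ATR answers stalled replication, MTOR couples nutrients to growth, SMG1 phosphorylates UPF1 in nonsense-mediated decay, and TRRAP is a member without kinase activity that scaffolds the NuA4/TIP60 and SAGA acetyltransferase complexes. All depend on the TELO2 chaperone complex for folding. Their genes are cut into many exons: the GENCODE 29 reference transcripts have 85 introns in PRKDC, 62 in ATM, 46 in ATR, 57 in MTOR, 62 in SMG1 and 70 in TRRAP, and encode 4128, 3056, 2644, 2549, 3661 and 3830 amino acids.

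Retention is the ratio as deposited, in percent, which sets the depth of reads over an intron against that depth plus the reads spliced across it. The deposited depth and spliced reads do not always reproduce it. For the depleted library they gave a value over 1 point away at 920, 1281 and 1579 introns of the WBP11 RNAi, SNW1 RNAi and WBP11 auxin comparisons. In the family this was 1 intron in each. A depth of 0 can also go with a ratio above 0, as for MTOR intron 37 in the RNAi control (0.278%). An intron was compared where depth plus spliced reads reached 10 in both libraries, and was called higher or lower where retention differed by at least 10 percentage points. Of the 382 introns annotated in the 6 reference transcripts, 62 were listed (16.2%). Every listed intron of the tables reached 1% in at least 1 of its libraries, and every listed intron was free of a quality warning in at least 1. An intron that is low in both, or warned in both, is therefore not listed. The listed introns are thus not a sample of all splicing in these genes, and an unlisted intron need not be low. Introns of at most 100 bp were listed most often, 10 of 17 (58.8%), against 11 of 33 for those up to 300 bp, 27 of 207 (13.0%) for those up to 2000 bp and 14 of 125 (11.2%) for longer ones. Of the 62 introns, 9 were listed in 3 tables, 27 in 2 and 26 in 1.

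The targeted genes came first as a check of the labels. Spliced reads of WBP11, as a share of all listed spliced reads, were 6.75% of control after WBP11 siRNA (95% interval 4.07 to 10.6), and those of SNW1 were 10.2% of control after SNW1 siRNA (6.87 to 14.8). In the auxin pair WBP11 stood at 38.0% from 1 listed intron, which does not measure the loss of the tagged protein. The factor not targeted was measured as well. SNW1 stood at 141% of control after WBP11 RNAi (125 to 160) and 65.3% after WBP11 auxin (56.5 to 75.5), from 1 listed intron each, and WBP11 at 196% after SNW1 RNAi (181 to 212). Spliced reads over all listed introns came to 2987572 for WBP11 RNAi and 3146434 for its control, 4170988 and 5527186 in the SNW1 RNAi table, and 4927556 and 4276828 in the auxin table. Of 10 colon epithelial markers, 4 or 5 had listed spliced reads in every table, with CDH1, CDH17, KRT18 and KRT19 among them each time. None of 5 fibroblast or 3 endothelial markers was listed, and of 4 leukocyte markers CD68 alone was, with 2 to 39 reads.

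Across the family, few introns rose and none fell. After WBP11 RNAi, 2 of 30 compared introns were higher (6.67%), where 9.07% of all introns in that table were. After SNW1 RNAi, 3 of 36 were higher (8.33%) against 16.6% of all introns. After WBP11 auxin, 4 of 39 were higher (10.3%) against 13.8% of all introns. No intron of the 6 genes was lower in any comparison, where 1.69%, 0.359% and 1.37% of all introns were. The shares of higher introns in the family lay below those of the tables, and at these numbers each rests on 2 to 4 introns.

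These calls fell on 6 introns in 4 genes: PRKDC intron 82, ATM introns 1 and 2, ATR intron 11, and TRRAP introns 27 and 34. MTOR, with 8 listed introns, and SMG1, with 13, had none. Of the 6 introns, 4 were 67 to 84 bp long and lie within coding sequence, and the others were the 2176-bp intron 27 of TRRAP and the 4408-bp intron 1 of ATM in its 5′ UTR. PRKDC intron 82 and TRRAP introns 27 and 34 were called in 2 comparisons each.

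To show the short introns at issue, the exon junctions that form when they are removed are printed from GENCODE 29 transcripts (build hg38), with 30 exon bases on each side and the last 3 bases of the upstream exon and the first 3 of the downstream exon in capitals. The raised short introns outside PRKDC come first: TRRAP intron 34 (78 bp, chr7:98949582-98949659, plus strand), ATM intron 2 (79 bp, chr11:108227697-108227775, plus strand) and ATR intron 11 (84 bp, chr3:142553741-142553824, minus strand). They are followed by short introns of like length that were compared and not called: TRRAP intron 69 (85 bp, chr7:99011256-99011340, plus strand), SMG1 intron 61 (80 bp, chr16:18811868-18811947, minus strand) and SMG1 intron 43 (84 bp, chr16:18838467-18838550, minus strand).
TRRAP intron 34 junction: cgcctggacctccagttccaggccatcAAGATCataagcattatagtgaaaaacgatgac
ATM intron 2 junction: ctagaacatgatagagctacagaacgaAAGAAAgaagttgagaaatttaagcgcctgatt
ATR intron 11 junction: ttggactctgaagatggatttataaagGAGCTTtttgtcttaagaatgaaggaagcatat
TRRAP intron 69 junction: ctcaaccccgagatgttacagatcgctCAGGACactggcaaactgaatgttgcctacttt
SMG1 intron 61 junction: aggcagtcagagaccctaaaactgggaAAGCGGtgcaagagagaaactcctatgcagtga
SMG1 intron 43 junction: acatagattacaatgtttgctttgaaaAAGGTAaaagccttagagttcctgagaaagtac

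Over the 297 introns of ATM, ATR, MTOR, SMG1 and TRRAP, 258 follow an exon that ends in G (86.9%) and 152 precede one that starts with G (51.2%). All 5 raised introns of these genes follow an exon ending in G, and none precedes an exon starting with G. With 5 introns this is a description only.

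The sequence inside an intron could be read for SMG1 intron 43, which lies whole within the annotated transcript SMG1-208. It is shown with its first 6 and last 3 bases in capitals as an example of how compact these introns are.
SMG1 intron 43: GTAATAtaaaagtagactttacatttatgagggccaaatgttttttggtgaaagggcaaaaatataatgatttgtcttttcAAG
Its GC content was 28.6%, its 84 bases are whole codons, and read in the frame of SMG1-202 it holds no stop codon. It went uncalled: its retention was 6.33% in the control, 3.19% after WBP11 RNAi and 1.33% after SNW1 RNAi.

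The catalytic subunit of DNA-PK carried the largest change of the family. PRKDC intron 82 of 85 (ENSG00000253729.6, hg38 chromosome 8, 47778661 to 47778727, minus strand) is 67 bp long, lies in coding sequence near the 3′ end of the gene, and is not a whole number of codons. Its retention was 0.120% in the RNAi control (95% interval 0.0101 to 1.40), 2.17% after WBP11 RNAi (1.05 to 4.41), 73.1% after SNW1 RNAi (68.1 to 77.5), 2.70% in the auxin control (1.78 to 4.09) and 55.9% after WBP11 auxin (51.6 to 60.1). The SNW1 RNAi and WBP11 auxin libraries were high and the other 3 were low, with no overlap of their intervals. The rise was 72.9 points after SNW1 RNAi (67.8 to 77.4), the fourth largest of 23366 introns, and 53.2 points after WBP11 auxin (48.7 to 57.5), rank 152 of 21828. After WBP11 RNAi the difference was 2.05 points (0.347 to 4.29) and was not called.

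The same intron shows the change in both of its components. Its depth was 0.217 in the RNAi control and 244 after SNW1 RNAi, while spliced reads were 322 and 90. In the auxin pair the depth was 21.1 in the control and 296 after depletion, and spliced reads were 759 and 232. After WBP11 RNAi the depth was 7 and spliced reads 316. IRFinder, the program behind the tables, raised no warning on this intron in any library. The authors' deposited table gives p = 1.50e-72 for SNW1 RNAi and p = 1.33e-89 for WBP11 auxin, each comparing the reads of 2 libraries and unadjusted.

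**Figure D1:**
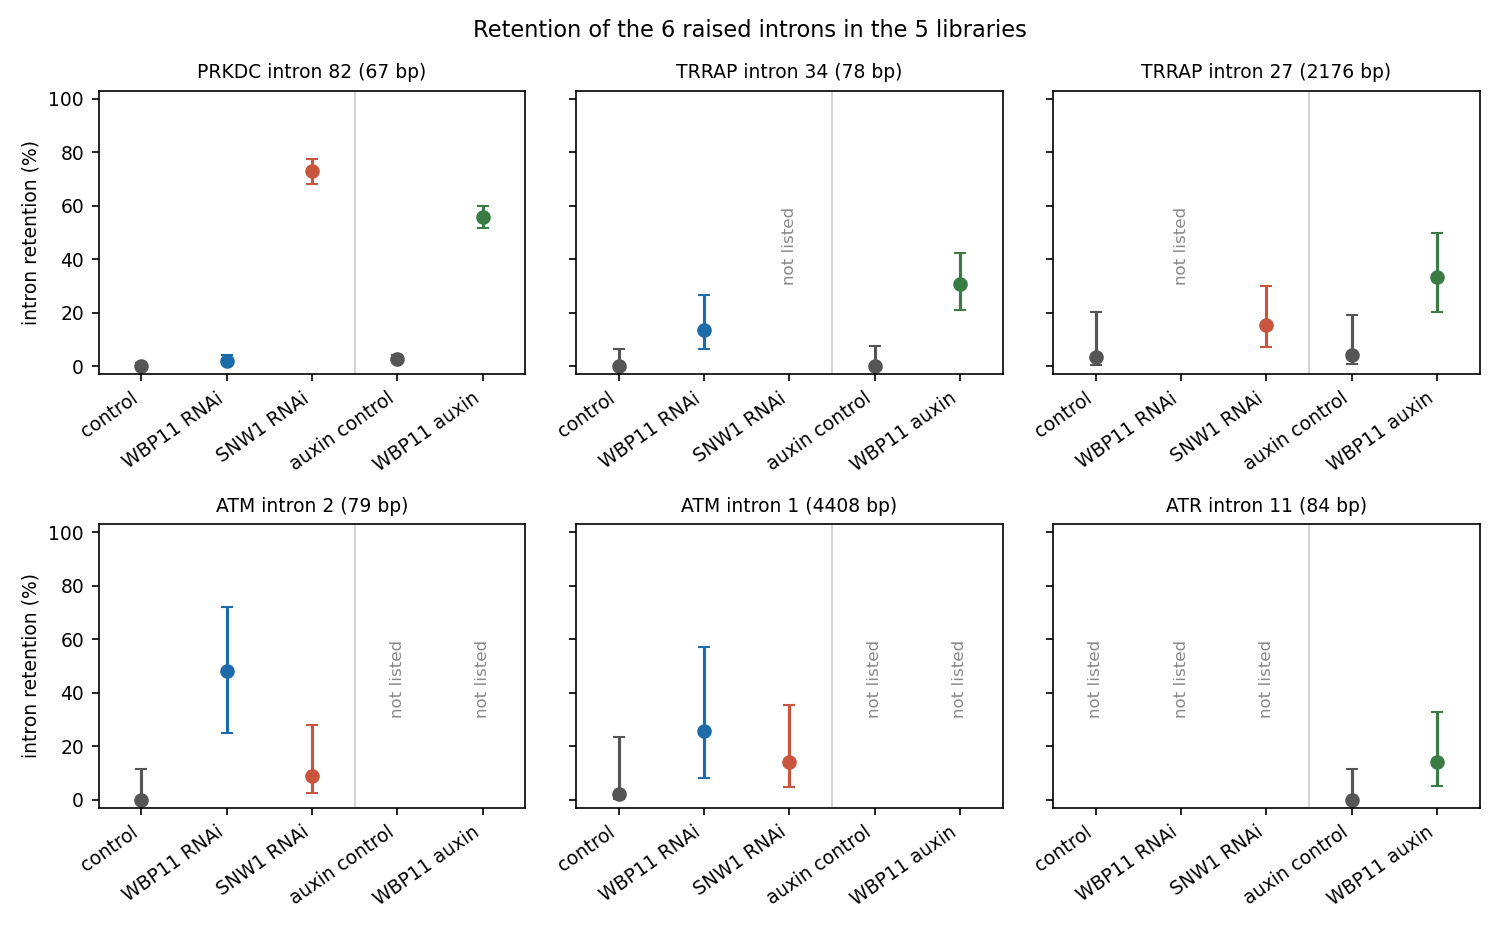
Retention (percent, y axis) of the 6 introns called higher, in the 5 libraries (x axis), with 95% Wilson intervals for counting error as bars and 1 library per point. PRKDC intron 82 stood at 73.1% after SNW1 RNAi and 55.9% after WBP11 auxin and below 3% in the other libraries, and the value of ATM intron 1 after WBP11 RNAi is drawn although its depth was under the minimum.

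No other intron of PRKDC was called. All its compared introns lay above control, 4 of 4 after WBP11 RNAi, 4 of 4 after SNW1 RNAi and 8 of 8 after WBP11 auxin, with differences of 0.753 to 2.05 points in the first. Over all introns of each table, 59.6%, 91.3% and 72.8% lay above control. Most of these PRKDC introns were under 1% in control. Such an intron is listed only if its depleted library reached 1%, so the listing fixed its direction. Nearest to a call was intron 53, a 75-bp intron of whole codons listed only in the auxin table, at 0.261% in control and 8.73% after depletion (difference 8.46 points, 4.69 to 13.3). Intron 84, 702 bp long and 2 introns from intron 82, stood at 0.677% and 4.32% (3.64 points, 1.45 to 6.57). Intron 29 was listed in all tables and stood at 0.790%, 1.59% and 2.51% in the control, WBP11 RNAi and SNW1 RNAi libraries and at 2.0% and 4.75% in the auxin pair. Of the 5 PRKDC introns of at most 100 bp, introns 6 and 8 were listed in no table.

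TRRAP, the scaffold of acetyltransferase complexes, had 2 raised introns. Intron 34 of 70 (ENSG00000196367.11), 78 bp and whole codons, stood at 0% in the RNAi control, 13.6% after WBP11 RNAi (6.40 to 26.7), 0% in the auxin control and 30.7% after WBP11 auxin (21.2 to 42.3), and was not listed for SNW1 RNAi. Both WBP11-depleted libraries were above their controls, whose zeros allow retention of up to 5.26% and 6.38%. The rises were 13.6 points (4.03 to 26.7) on a depth of 6 with 38 spliced reads against 57 in control, and 30.7 points (18.6 to 42.3) on a depth of 21.8 with 49 spliced reads against 47. The auxin value carries IRFinder's warning of uneven intron coverage.

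TRRAP intron 27 (hg38 chromosome 7, 98933403 to 98935578, 2176 bp) stood at 3.60% in the RNAi control, 15.5% after SNW1 RNAi, 4.25% in the auxin control and 33.4% after WBP11 auxin. The rise after WBP11 auxin was 29.2 points (9.44 to 45.8). The interval of the SNW1 RNAi difference, 11.9 points, ran from -6.69 to 26.6, so counting error alone spans 0 there. Both comparisons carry the minor isoform warning, in the SNW1 control and in the WBP11 auxin library. Every compared TRRAP intron, the called ones included, had higher retention than control. These were 5 of 5 after WBP11 RNAi, 5 of 5 after SNW1 RNAi and 11 of 11 after WBP11 auxin. Of all introns of each table, 59.6%, 91.3% and 72.8% lay above control. Most of these TRRAP introns were under 1% in control and so were listed only through a higher depleted library, which fixed their direction. Intron 69 (85 bp) stood at 0.125% and 4.78% in the auxin pair (4.65 points, 1.95 to 8.20), and intron 68 (2490 bp), its upstream neighbour, at 8.32% and 14.7% (6.40 points, -1.63 to 14.2).

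ATM, the kinase of the DNA break response, was raised at its first introns. Intron 2 of 62 (ENSG00000149311.16), 79 bp and the first to interrupt the coding sequence, stood at 0% in the control, 47.9% after WBP11 RNAi (24.9 to 72.0) and 9.09% after SNW1 RNAi (2.53 to 27.8), and was not listed in the auxin table. The zero in the control allows up to 10.3%. The rise after WBP11 RNAi, 47.9 points (22.1 to 72.0), ranked 38 of 16068 introns, but rests on a depth of 6.45 and 7 spliced reads against 29 in control, with a warning of uneven coverage. The value after SNW1 RNAi lay just under the threshold.

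ATM intron 1 (hg38 chromosome 11, 108223187 to 108227594) overlaps an annotated exon, whose reads can count as retention. It stood at 2.16% in the control, 25.7% after WBP11 RNAi and 14.3% after SNW1 RNAi. The SNW1 RNAi value was called, with a difference of 12.1 points whose interval ran from -11.1 to 33.2. The WBP11 RNAi value was not compared, since depth plus spliced reads was under 10. Intron 53, listed in all tables, stood at 0.607%, 3.11% and 3.06% in the RNAi libraries and 1.34% and 6.78% in the auxin pair, with no call. Introns 41, 47, 49, 53 and 55 of ATM lie within C11orf65, a gene on the opposite strand, and the sources used here do not say whether counting used strand.

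ATR, the replication stress kinase, had 1 raised intron. Intron 11 of 46 (ENSG00000175054.13), 84 bp and whole codons, was listed only in the auxin table, at 0% in control and 14.2% after WBP11 auxin (5.30 to 32.8). Its interval of difference ran from -0.239 to 32.8 points on a depth of 3.47 and 21 spliced reads against 30 in control, with a warning of uneven coverage. Of the ATR introns compared after WBP11 RNAi, 4 of 5 lay under control, beside 6487 of 16068 introns of the whole table. Introns 4, 43 and 46 were under 1% after WBP11 RNAi and so were listed only through a higher control, which fixed their direction. Intron 3, listed in all tables, stood at 5.19% in the control, 2.01% after WBP11 RNAi, 1.26% after SNW1 RNAi, 5.43% in the auxin control and 1.51% after WBP11 auxin, so that all depleted libraries were below both controls, with no difference of 10 points and with intervals that include 0. Intron 4 had 5.44%, 0.845% and 1.08% in the RNAi libraries, and intron 39 went the other way with 1.61%, 7.69% and 8.78%.

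MTOR had no call. Its intron 43 (197 bp, ENSG00000198793.11, hg38 chromosome 1, 11127807 to 11128003) had 5.41% in the RNAi control and 16.0% in the auxin control, the highest value of the family in that control. It stood at 3.45% after WBP11 RNAi and 13.5% after SNW1 RNAi, a difference of 8.04 points (-1.32 to 17.9), and at 10.1% after WBP11 auxin, a difference of -5.89 points (-15.2 to 2.47). The 2 controls themselves were 10.6 points apart at this intron, further than any of its depleted libraries from its own control. Intron 37, also in all tables, stood at 0.278%, 2.18% and 1.80% in the RNAi libraries and 0.773% and 3.71% in the auxin pair. Neither MTOR intron of at most 100 bp, introns 7 and 35, was listed.

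SMG1, the kinase of nonsense-mediated decay, also had no call among 9, 7 and 7 compared introns. Its introns differed from control by -3.14 to 5.23 points after WBP11 RNAi, -5.00 to 2.72 after SNW1 RNAi and -6.77 to 2.66 after WBP11 auxin. Intron 44 (124 bp) was the single intron of the family whose interval lay wholly below 0: it stood at 8.23% in the auxin control and 1.46% after WBP11 auxin (-6.77 points, -15.8 to -0.851), and at 2.26%, 0% and 2.70% in the RNAi libraries. The short intron 61 had 0.676% and 3.33% in the auxin pair. GENCODE 29 annotates 7 SMG1 pseudogenes on chromosome 16, and reads of near-identical copies may have been split between them and SMG1, so its values are uncertain.

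**Figure D2:**
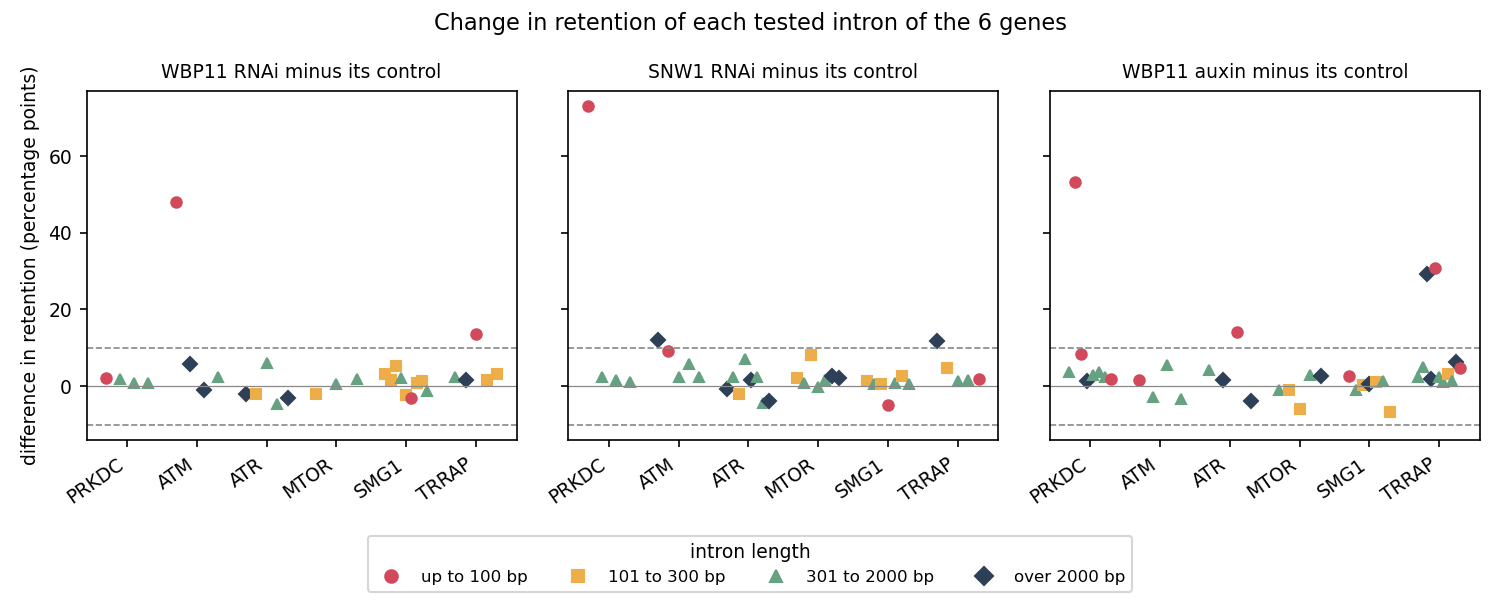
Difference in retention, depleted minus control (percentage points, y axis), for each compared intron of the 6 genes (x axis) in the 3 comparisons (panels), with colour and marker by intron length and dashed lines at 10 points either way. Points above the upper line are 2, 3 and 4 introns in the 3 panels, PRKDC intron 82 highest after SNW1 RNAi and WBP11 auxin, and no point lies below the lower line.

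Over all compared introns of the family, called ones included, most differences were positive. The median difference was 1.59 points after WBP11 RNAi, 1.82 after SNW1 RNAi and 2.27 after WBP11 auxin, beside 0.756, 2.63 and 1.45 over all introns of each table. Retention was above control in 21 of 30 (70%), 30 of 36 (83.3%) and 31 of 39 (79.5%) introns, beside 59.6%, 91.3% and 72.8% of all introns. After SNW1 RNAi the family's median and its share above control were thus under those of the table, and in both WBP11 comparisons they were over them. The interval of the difference lay wholly above 0 in 3 of 30, 1 of 36 and 6 of 39 introns of the family. Over all introns it did so in 2289 of 16068, 7246 of 23366 and 4488 of 21828. Introns under 1% in control were listed only where the depleted library was higher, so the listing partly set these directions.

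The controls of the RNAi and auxin experiments were close at most of these introns. Over the 23 introns listed in an RNAi table and in the auxin table, the auxin control minus the RNAi control ranged from -0.451 to 10.6 points with a median of 0.494. It was within 3 points for 19 of them, the exceptions being MTOR intron 43, SMG1 introns 44 and 47, and ATM intron 49. For ATM intron 49 the values were 0.489% and 3.67%, and for SMG1 intron 47 they were 0% and 5.32%.

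Short introns made up most of those that rose after WBP11 RNAi and WBP11 auxin, but 1 of 3 after SNW1 RNAi. Among introns of at most 100 bp, 2 of 4 compared were higher after WBP11 RNAi, 1 of 4 after SNW1 RNAi and 3 of 8 after WBP11 auxin, where 16.4%, 26.9% and 39.2% of all introns of that length were higher in the tables. After SNW1 RNAi and WBP11 auxin the family's shares, 25% and 37.5%, were thus close to those of all short introns. None of the family's introns over 100 and up to 300 bp was higher, 0 of 10, 0 of 7 and 0 of 6, beside 13.6%, 24.1% and 13.2% of all introns. None over 300 and up to 2000 bp was, 0 of 11, 0 of 18 and 0 of 17, beside 6.13%, 14.0% and 8.40%. Over 2000 bp, 0 of 5 were higher after WBP11 RNAi. After SNW1 RNAi 2 of 7 were (ATM intron 1 and TRRAP intron 27), and after WBP11 auxin 1 of 8 (TRRAP intron 27). In that class 1.27%, 3.97% and 4.18% of all introns were higher.

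**Figure D3:**
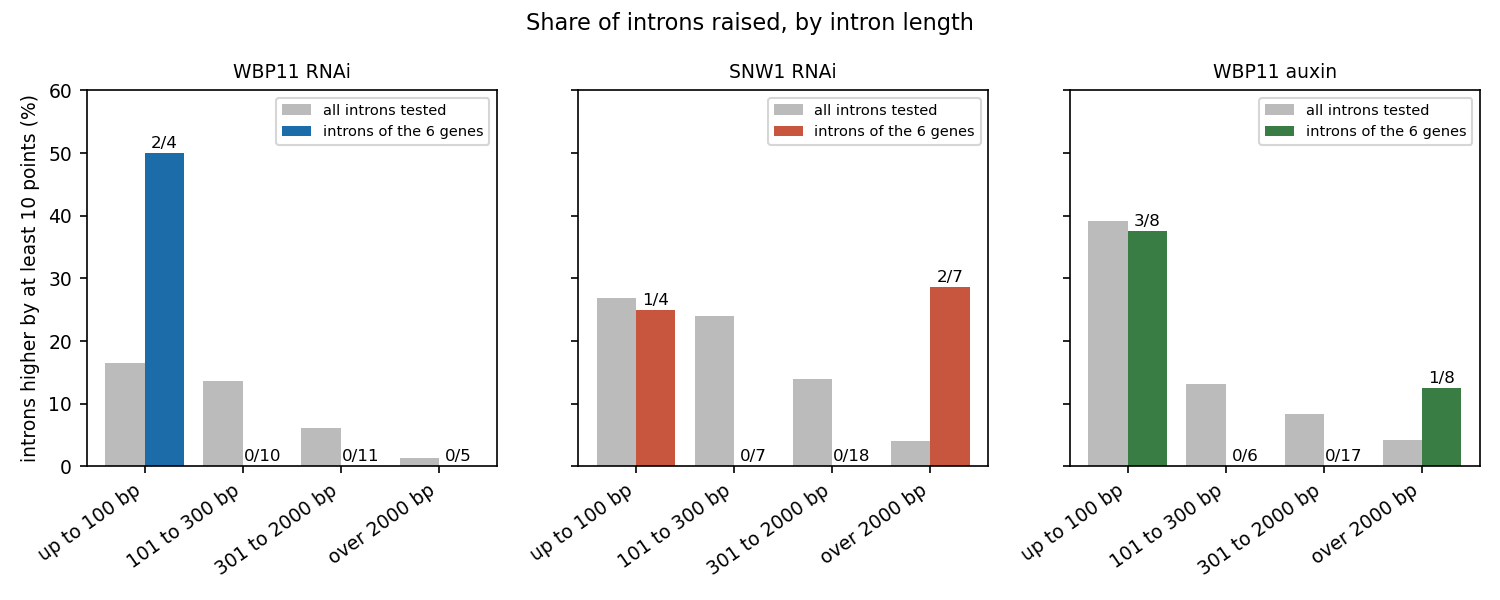
Share of compared introns that were higher by at least 10 points (percent, y axis) by intron length (x axis) in the 3 comparisons (panels), grey bars for all introns of the table and coloured bars for the 6 genes, with counts above the bars. In all 3 panels the family's introns over 100 and up to 2000 bp have no call, while 2 of 4, 1 of 4 and 3 of 8 of the shortest do.

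The short introns were also read for whether their length is whole codons. PRKDC intron 82 and ATM intron 2 would shift the reading frame by their length, while TRRAP intron 34 and ATR intron 11 are whole codons. Among uncalled short introns, PRKDC intron 53, ATM intron 41 and SMG1 intron 43 are whole codons too. ATM intron 41 (99 bp) stood at 0% and 1.61% in the auxin pair, and PRKDC intron 2 (91 bp) at 0% and 1.82%. The raised and unraised short introns therefore include both kinds of length.

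Introns of other genes were ranked by their nearness to PRKDC intron 82 over the 5 libraries. Over 8601 introns compared in all tables, the nearest by the distance between their 5 retention values was a 65-bp intron of PLXNA1, a semaphorin receptor, at 5.94%, 9.10%, 57.3%, 9.70% and 59.5% in the same library order (19.8 points away). A 67-bp intron of ANAPC2, a subunit of the anaphase-promoting complex, stood at 11.5%, 20.2%, 67.2%, 10.9% and 62.2% (24.4 points). All 5 nearest introns were 65 to 84 bp long. The nearest introns were sought after the values of PRKDC intron 82 had been seen, and length did not enter the distance.

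Of the 6 genes, SMG1 and TRRAP had at least 5 compared introns in each table, which allowed their median differences to be set beside those of 739 genes. Nearest to SMG1, with medians of 1.35, 0.63 and 0.56 points in the WBP11 RNAi, SNW1 RNAi and WBP11 auxin comparisons, were FRMD4B (0.226 points away) and SUPV3L1 (0.584). Near to TRRAP, with 2.30, 1.92 and 3.19 points, was PI4KA (0.361 points away), a lipid kinase.

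Spliced reads, which also enter the retention ratio, differed between the genes. They are given as the share of all listed spliced reads relative to control, over the listed introns of each gene. In bulk libraries of this kind, fewer expressing cells and less RNA per cell cannot be told apart. PRKDC stood at 120% of control after WBP11 RNAi (108 to 133), 87.2% after SNW1 RNAi (77.1 to 98.6) and 53.6% after WBP11 auxin (49.6 to 57.8). Intron 82 had a large part in this: without it, PRKDC stood at 135% after SNW1 RNAi, the other side of control, and 73.6% after WBP11 auxin.

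SMG1 had the highest ratio of the family in the auxin pair, 218% of control (197 to 241), and stood at 128% after WBP11 RNAi and 144% after SNW1 RNAi. Its pseudogene SMG1P7 had 48 listed spliced reads after WBP11 auxin and 12 in control, and the part of such copies in the SMG1 value was not tested. MTOR stood at 118%, 167% and 134% of control in the WBP11 RNAi, SNW1 RNAi and WBP11 auxin comparisons. ATR stood at 90.3%, 169% and 65.2%, over control after SNW1 RNAi (144 to 199) and under it after WBP11 auxin (51.5 to 82.4). ATM stood at 59.1% after WBP11 RNAi (44.2 to 78.5), from 78 reads against 139, at 94.5% after SNW1 RNAi and at 131% after WBP11 auxin. TRRAP stood at 106%, 135% and 94.6%.

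Over the family as a whole, spliced reads were 114% of control after WBP11 RNAi (107 to 121), 132% after SNW1 RNAi (125 to 139) and 98.6% after WBP11 auxin (94.5 to 102.8). Over introns listed in all 3 tables alone, the SNW1 RNAi value was 102% and the WBP11 auxin value 81.6%. This set is 9 introns and includes the raised PRKDC intron 82, which weighs heavily in it. That intron had 90 spliced reads against 322 in control after SNW1 RNAi, and 232 against 759 after WBP11 auxin. These 2 values therefore do not describe the other introns of the set. Listed introns are not the whole transcript, and the tables list different introns, so these ratios are not gene expression levels.

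**Figure D4:**
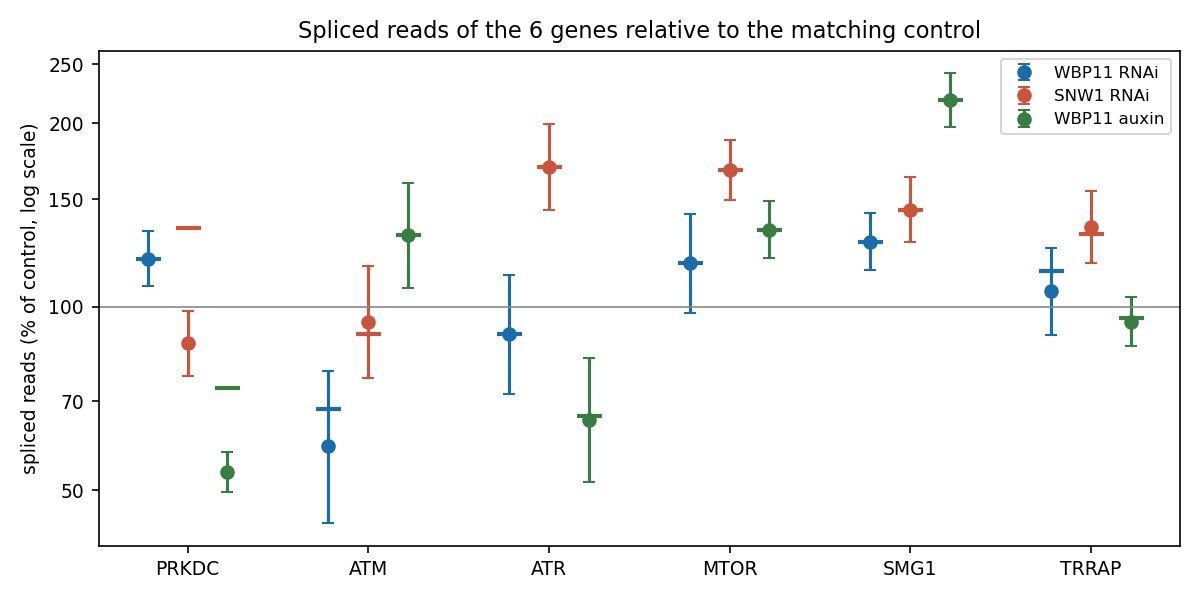
Spliced reads of the listed introns of each gene (x axis) as percent of control on a log scale (y axis), scaled by the total of all listed introns, in the 3 comparisons, with 95% counting intervals as bars and short dashes for the value without introns called higher. PRKDC is lowest after WBP11 auxin at 53.6% and SMG1 highest at 218%, and PRKDC after SNW1 RNAi moves from 87.2% to 135% without intron 82.

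The proteins that work with the kinases were examined in 8 lists of partners, chosen by function with results of these data known. For each list the counts of higher introns are given for WBP11 RNAi, SNW1 RNAi and WBP11 auxin in that order, to be read against 9.07%, 16.6% and 13.8% of all introns. The chaperones that fold PI3K-like kinases, the TTT and R2TP complexes, had 2 of 21, 4 of 31 and 4 of 28 introns higher, all in TELO2 and PIH1D1. The 254-bp intron of TELO2 (chromosome 16, 1507052 to 1507305) rose from 6.48% to 29.7% after WBP11 RNAi and to 39.0% after SNW1 RNAi, and from 17.8% to 43.0% after WBP11 auxin. A 74-bp intron of the same gene rose from 12.5% to 59.8% after WBP11 auxin.

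The end joining partners of PRKDC had 8 of 23, 12 of 28 and 8 of 18 introns higher, the largest shares of the 8 lists. They lay in 2 of 5, 3 of 6 and 3 of 4 genes compared, so that few genes set these shares. Just 2 genes, PAXX among them, held 8, 10 and 7 of the higher introns. Without those genes, 0 of 7, 2 of 10 and 1 of 6 introns of the list were higher. In PAXX, a Ku-binding factor, a 224-bp intron (chromosome 9, 136992701 to 136992924) rose from 51.6% to 84.3% after WBP11 RNAi and to 86.7% after SNW1 RNAi. The first of these values carries the minor isoform warning. In POLL, a polymerase of end joining, 2 of 3 introns were higher after SNW1 RNAi, with intervals that include 0 (-0.745 to 23.2 and -2.50 to 23.3 points). The first of them, 920 bp long, was called in both directions. It stood at 13.8% in control and 24.4% after SNW1 RNAi, but at 36.5% in control and 23.1% after WBP11 auxin (-31.7 to 6.48 points). A 430-bp intron of POLL rose from 12.7% to 30.7% after WBP11 auxin. In POLM, another such polymerase, 1 intron was called lower after WBP11 RNAi, at 12.9% and 1.23% (-28.0 to 6.96).

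ATM partners and targets had 1 of 19, 1 of 26 and 3 of 29 introns higher. TP53BP1, a reader of chromatin at DNA breaks, was the one called in both RNAi comparisons, at 15.4% against 2.79% after WBP11 RNAi and, in another intron, at 35.4% against 10.2% after SNW1 RNAi. ATR partners had 2 of 19, 6 of 32 and 5 of 36 higher. The 216-bp intron of TIMELESS, a protein of the replication fork, rose from 9.08% to 27.8% after WBP11 RNAi and to 21.7% after SNW1 RNAi, and from 19.5% to 39.6% after WBP11 auxin. ATRIP, the binding partner of ATR, had introns called in both directions. Its 403-bp intron fell from 21.96% to 2.24% after WBP11 RNAi (interval of the difference -42.0 to 0.331 points) and from 13.0% to 2.43% after WBP11 auxin (-19.8 to -2.76). Its 332-bp intron was called higher from 4.17% to 22.4% after both WBP11 RNAi and SNW1 RNAi, with intervals that include 0. After SNW1 RNAi 3 of the 5 ATRIP introns were higher. Each of these calls has an interval that includes 0 and a warning of low or uneven coverage in the depleted library.

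Regulators of MTOR had 11 of 76, 17 of 84 and 14 of 100 introns higher. NPRL2, a subunit of the GATOR1 complex that restrains MTORC1, rose in an 85-bp intron from 1.54% to 26.4% after WBP11 RNAi and from 5.29% to 73.2% after WBP11 auxin. After WBP11 auxin, a 77-bp intron of TSC1, a brake on MTORC1, rose from 6.45% to 62.7%, and an 80-bp intron of ULK1, an autophagy kinase, from 0% to 50.7%. TSC2, the partner of TSC1, had 1 of 19, 3 of 18 and 4 of 22 introns higher, and its 1057-bp intron rose from 17.6% to 37.2% after SNW1 RNAi and from 13.8% to 40.4% after WBP11 auxin. In this list 1 intron of TSC2 was called lower after WBP11 RNAi, at 18.3% in control and 5.62% (-25.4 to 1.48 points), and 1 of DEPDC5 after WBP11 auxin, at 29.9% and 19.2% (-31.3 to 9.75).

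The partners of SMG1 in nonsense-mediated decay had 0 of 24, 2 of 38 and 2 of 26 introns higher, under the shares of the tables in all 3 comparisons. SMG9, a subunit of the SMG1 complex, rose from 11.1% to 32.1% after SNW1 RNAi, and SMG5 from 33.6% to 55.2% after WBP11 auxin. Subunits of the TRRAP complexes had 4 of 66, 12 of 91 and 12 of 87 higher. KAT2A, the SAGA acetyltransferase, rose from 7.0% to 31.7% in a 226-bp intron after WBP11 RNAi, and EPC1 of the NuA4 complex from 2.17% to 42.4% in an 82-bp intron after WBP11 auxin. The PI3 lipid kinases, the relatives of the family, had 2 of 38, 3 of 53 and 5 of 49 higher, among them an 81-bp intron of PIK3C2A that rose from 1.01% to 15.0% after WBP11 RNAi and from 6.09% to 38.0% after WBP11 auxin.

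**Figure D5:**
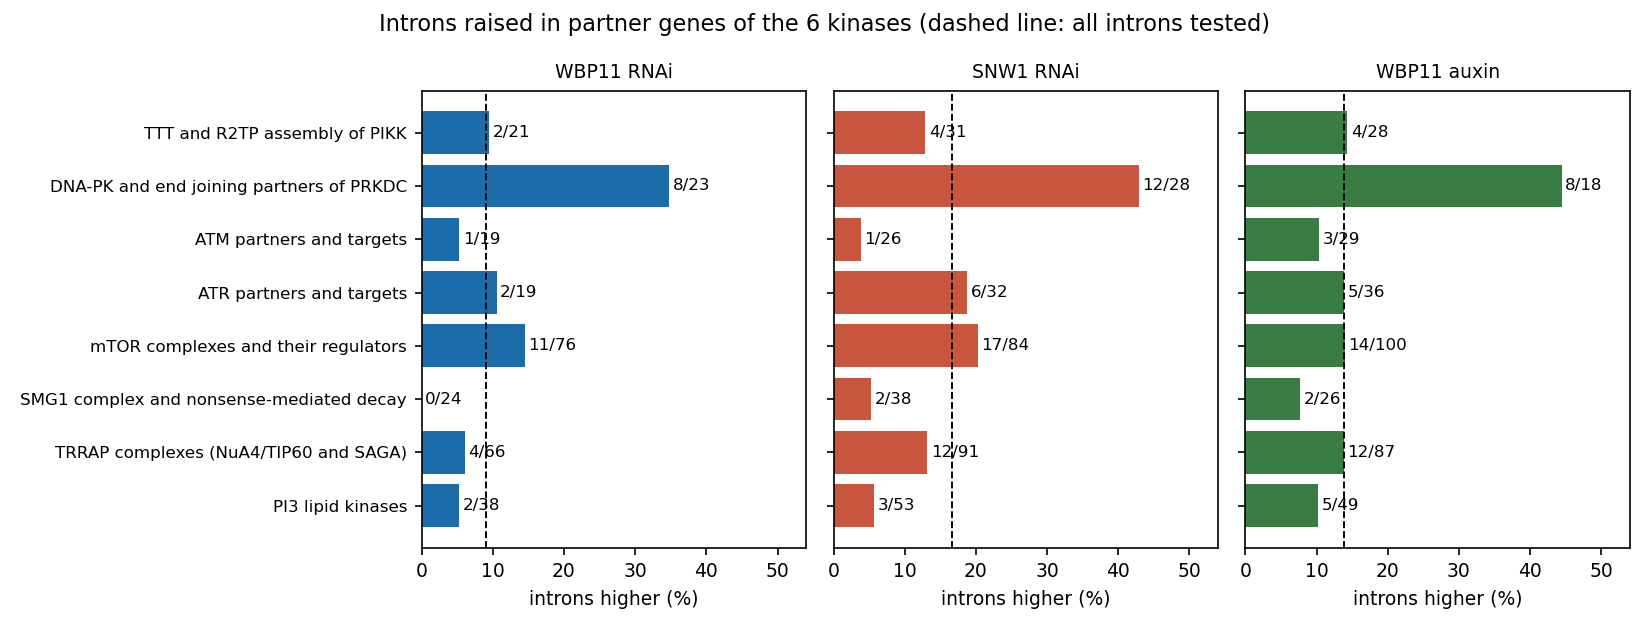
Share of compared introns higher by at least 10 points (percent, x axis) in each of the 8 partner lists (y axis) for the 3 comparisons (panels), with counts beside the bars and a dashed line at the share of all introns of the table. The end joining partners have the longest bars, 8 of 23, 12 of 28 and 8 of 18, and the nonsense-mediated decay list lies left of the line in each panel.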

How the data were processed

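PolyA RNA of DLD-1 cells was sequenced, with 1 library per group. Per the file headers, the 3 tables are IRFinder comparisons of STAR alignments, and RSEM, bedtools and the build hg38 appear in the submitters' processing notes. Their versions were not given in the sources used here. Each retention ratio is a fraction as deposited, printed here as a percentage. The depth over an intron is a coverage signal that the authors deposited, and spliced reads are a deposited count per intron. The p-values the authors deposited are unadjusted, compare the reads of 2 libraries, and use a code of 33 where no test was made.

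All listed introns matched GENCODE 29, which gave intron numbers and sequences. The RNAi tables shared 13412 introns with the same control values, so the control is 1 library. Low depth left out 561, 711 and 643 introns. Wilson intervals are given for ratios, Newcombe intervals for differences and Clopper-Pearson-based intervals for spliced-read ratios, at 95%, with depth plus spliced reads as the observations. A zero was given a limit of 3 counts. Reads are not independent molecules. No model was fitted. Python 3.11.15, pandas 2.3.3 and scipy 1.17.1 were used.

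The members and lists were chosen with earlier results of these data known. Named were every called intron of the 6 genes, introns listed in all tables, up to 3 called introns per list and comparison, and the 2 nearest genes of SMG1 and TRRAP, over genes with at least 5 introns compared in each table. Some genes that this rule names are not reported here. Other introns near the threshold, the introns like PRKDC intron 82 and the sequences of ATM and ATR were chosen after their values were seen. Alternatives were other differences and depth minimums, warned introns left out, other centring and other scaling.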

Additional observations from a re-analysis of the deposited data

How the results depend on the processing

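The number of the family's introns called higher depends on the rule. With a difference of 5 points it was 5 of 30 after WBP11 RNAi, 7 of 36 after SNW1 RNAi and 7 of 39 after WBP11 auxin. Of all introns, 17.4% and 32.2% were then higher in the RNAi comparisons. After WBP11 auxin, 2 introns of the family were then lower. With a difference of 20 points it was 1 after WBP11 RNAi and 1 after SNW1 RNAi, beside 3.53% and 6.49% of all introns. After WBP11 auxin, PRKDC intron 82 (53.2 points), TRRAP intron 34 (30.7) and TRRAP intron 27 (29.2) were above 20 points. With a minimum of 30 it was 1 of 24, 1 of 29 and 2, beside 7.39% and 14.3% in the RNAi comparisons. Without introns that carry a warning it was 1 of 21, 1 of 24 and 1, beside 8.96% and 16.6% in the RNAi comparisons. For WBP11 auxin the shares of all introns under these alternatives are not given here, so its counts cannot be read against them. After SNW1 RNAi, 1 call had an interval leaving out 0, PRKDC intron 82, beside 13.8% of all introns. Centred on all introns, the median difference after SNW1 RNAi was -0.814 points, the reverse of the uncentred sign. The family's spliced reads after SNW1 RNAi were 124% of control scaled by the median gene ratio, 145% without raised introns and 102% over introns in all 3 tables, and after WBP11 auxin 91.7%, 116.0% and 81.6%. The introns in all 3 tables include the raised PRKDC intron 82, which weighs heavily in the last value of each comparison. PRKDC after SNW1 RNAi was 135% without intron 82, which reverses its side of control. Of the alternatives for the family's counts, medians and ratios, 67 left them the same, 19 moved them and 1 reversed the sign. A count was taken as the same also after a small change, as from 2 to 3, and where it stayed at 0. No paired analysis was possible because each group had 1 library, and for the same reason no replicate could be left out. Calls in ATM, ATR and TRRAP rest on few reads, so depth limits them more than that in PRKDC.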
